A study of Mus musculus with 32 samples.

Results

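The messengers of 4 growth factors, Fgf2, Fgf7, Fgf10 and Hgf, and of 3 receptors, Fgfr1, Fgfr2 and Met, were followed in mouse lung organoid co-cultures. The genes were taken by name, and all 7 were among the 11818 genes of the count table. The question was how the ligand messengers of the fibroblasts changed with treatment and whether the receptor messengers of the epithelial cells changed with them. Freshly isolated mouse lung Epcam+ cells (CD45-/CD31-/Epcam+, from mice 8 to 14 weeks old) were cultured in Matrigel with an equal number of CCL206 cells, an established mouse lung fibroblast line whose division had been stopped with mitomycin C. The cultures received vehicle, recombinant osteoglycin (OGN, 10 µg/mL), extracellular vesicles (EVs, 1000000000 particles/mL) or soluble factors (SFs, 30 µg/mL) released by human MRC5 lung fibroblasts, each for 72 h. The cells were then separated again with Epcam microbeads and total RNA of both populations was sequenced, which gave 8 groups of 4 libraries from 4 mice. Every group of CCL206 cells thus came from 1 line, and only the Epcam+ cells differed between the mice.

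FGF7, FGF10 and HGF are classically made by mesenchymal cells and act on neighbouring epithelium. FGF7 and FGF10 bind the epithelial splice form of FGFR2, HGF binds MET, and FGF2 binds most forms of FGFR1 and several other FGF receptors with the help of heparan sulfate. Bound receptors signal through RAS and the ERK kinases, which switch on their own inhibitors, the Sprouty and Spred proteins. In the lung, FGF10 and FGFR2 are needed for branching, and FGF7 and HGF are known as mitogens of alveolar type II (AT2) cells. Counts per gene do not separate the splice forms of Fgfr1 or Fgfr2.

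On GRCm38.p6 (RefSeq), Fgf2 lies on chromosome 3 (37348477 to 37410106), Fgf7 on chromosome 2 (126034658 to 126091185), Fgf10 on chromosome 13 (118714699 to 118792573) and Hgf on chromosome 5 (16553495 to 16619439). Fgfr1 lies on chromosome 8 (25518759 to 25575718), Fgfr2 on chromosome 7 (130162451 to 130266808) and Met on chromosome 6 (17463349 to 17573980). The 250 bases before the start of Fgf7, Fgf10 and Hgf are shown because these 3 ligands rose together with OGN. All 3 windows are on the plus strand, and capitals mark matches on either strand to any of 3 short motifs. The first is a forkhead motif, which is bound by FOX factors and was searched as TGTTTAC. The second is the GC box, known as a binding sequence of the SP family of factors, searched as GGGCGG. The third is an NFAT-type motif, the core sequence recognised by the calcium-regulated NFAT factors, searched as GGAAAA.
Fgf7, chr2:126034408-126034657: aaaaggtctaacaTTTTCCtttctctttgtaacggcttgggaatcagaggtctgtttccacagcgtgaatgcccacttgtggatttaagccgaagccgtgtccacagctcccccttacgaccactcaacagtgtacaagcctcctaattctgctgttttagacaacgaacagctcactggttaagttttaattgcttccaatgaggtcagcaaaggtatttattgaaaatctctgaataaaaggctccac
Fgf10, chr13:118714449-118714698: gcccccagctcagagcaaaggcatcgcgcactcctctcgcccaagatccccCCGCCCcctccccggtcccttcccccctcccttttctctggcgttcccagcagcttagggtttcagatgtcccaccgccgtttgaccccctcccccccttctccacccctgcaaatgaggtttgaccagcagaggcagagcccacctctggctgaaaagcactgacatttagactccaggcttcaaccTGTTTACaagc
Hgf, chr5:16553245-16553494: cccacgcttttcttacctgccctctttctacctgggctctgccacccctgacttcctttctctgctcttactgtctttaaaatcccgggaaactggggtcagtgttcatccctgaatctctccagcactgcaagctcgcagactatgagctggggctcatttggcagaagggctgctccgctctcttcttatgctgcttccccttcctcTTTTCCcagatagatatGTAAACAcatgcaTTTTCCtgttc
The forkhead motif was present before Fgf10 (bases 11 to 5 upstream of the start) and Hgf (bases 24 to 18), was not found before Fgf7, and occurs in 3.17% of all 32851 promoter windows of this length. The GC box was present before Fgf10 (32.7% of all windows), and the NFAT-type motif before Fgf7 and Hgf (20.4%). A wide CArG-like pattern (67.1%), left unmarked, was present before Fgf7 and Fgf10 and overlapped the GC box of Fgf10. The letters of the other 10 motifs searched were in none of the 3 windows. These were AP-1 (TGANTCA, 6.75% of all windows), CRE (TGACGTCA, 1.55%), C/EBP (TTGCNNAA, 9.56%), STAT (TTCNNNGAA, 7.02%) and the hypoxia response element (ACGTG, 16.6%). A further motif was the E-box (CACGTG), which contains the hypoxia motif and was present in 6.02% of all windows. The TATA motif, searched as TATAAA, was present in 12.4% of the windows of all genes in the promoter table. The motif of TEAD factors, which act in the Hippo pathway, was searched as GGAATG and was present in 12.6% of windows. ETS (CCGGAAGT, 2.88%) and the glucocorticoid response element (0.387%) were the remaining motifs. Another start of Hgf had a window at chr5:16553651-16553900, not shown, with a CArG-like match and none of the other motifs. A match is a description of the letters and not of a bound site.

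The libraries held 1805914 to 17675454 counts (median 5901652). The lowest count of any member in any library was 12 (Fgf2 in Epcam+ cells). Levels are CPM, counts scaled with TMM to a common library size, and a gene was called where the Benjamini-Hochberg adjusted p of edgeR's quasi-likelihood test, taken over all genes, was under 0.05. The separation was incomplete in both directions. In vehicle, the 9 fibroblast markers in the table (of 10) summed to 11569 to 12907 CPM in CCL206 libraries and 2239 to 3111 CPM in Epcam+ libraries, and the 4 epithelial markers (Epcam, Cdh1, Krt8, Krt18) to 152 to 391.6 CPM and 3423 to 3514 CPM. The 10 AT2 markers summed to 1876 to 4841 CPM in CCL206 libraries and 9552 to 15999 CPM in Epcam+ libraries with vehicle. Of the 9 fibroblast markers 1, Fbln1, went against its label and was higher in Epcam+ libraries. The 4 endothelial markers and 4 of 5 macrophage markers were not in the table. The 1 left, Cd68, was at 4.93 to 5.71 CPM in CCL206 and 1.61 to 5.61 CPM in Epcam+ libraries with vehicle. No gene of the table has a 0 in any library, so absence from it does not show that such cells were missing. The fibroblast libraries given EVs in mice 2 and 4 stood apart, where the rank correlation (Spearman's rho) of a gene's transcript length with its deviation from vehicle was -0.58 and -0.62, against -0.29 and -0.36 in mice 1 and 3 and -0.24 to 0.11 in the fibroblast libraries given SFs or OGN.

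In CCL206 fibroblasts, OGN raised Fgf7, Fgf10 and Hgf, by 2.24- to 2.46-fold, and Fgf2 was not called. Fgf7 (FGF7, keratinocyte growth factor) was at 80.1, 86.2, 77.4 and 85.0 CPM in the vehicle libraries of mice 1 to 4 and at 180.2, 165, 181 and 216 CPM with OGN. The lowest OGN library was well above the highest vehicle library, and the log2 fold change was 1.17 ± 0.10 (SE, n = 4 mice; 2.24-fold; adjusted p = 4.52e-06, edgeR). Fgf10 (FGF10) was at 49.2, 41.5, 51.2 and 46.1 CPM with vehicle and at 98.6, 114, 94.7 and 122 CPM with OGN. These groups did not overlap either, and the log2 fold change was 1.20 ± 0.16 (2.30-fold; adjusted p = 0.000167, edgeR).

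Hgf (hepatocyte growth factor) was the most abundant of the 4 ligand messengers by CPM and was at 113, 114, 126 and 132 CPM with vehicle and 287, 305, 279 and 320.5 CPM with OGN. It rose in 4 of 4 mice, by 2.22- to 2.68-fold within a mouse, with a log2 fold change of 1.30 ± 0.19 (adjusted p = 0.000485, edgeR). Fgf2 (FGF2, basic FGF) was at 53.8, 53.6, 45.2 and 48.0 CPM with vehicle and 49.4, 57.4, 49.2 and 56.2 CPM with OGN. These groups overlapped, with a log2 fold change of 0.09 ± 0.15 (95% confidence interval -0.23 to 0.40; adjusted p = 0.864, edgeR). In all, 4 of the 7 members were called with OGN in fibroblasts, the 3 ligands and Fgfr1, where 4.56% of all genes were. The ligands had been chosen by the study and reported on these same samples, so their direction is not independent evidence. The calls of Fgf7, Fgf10 and Hgf held under each of the 14 other ways of processing tried for this comparison, with adjusted p of at most 0.0242.

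**Figure D1:**
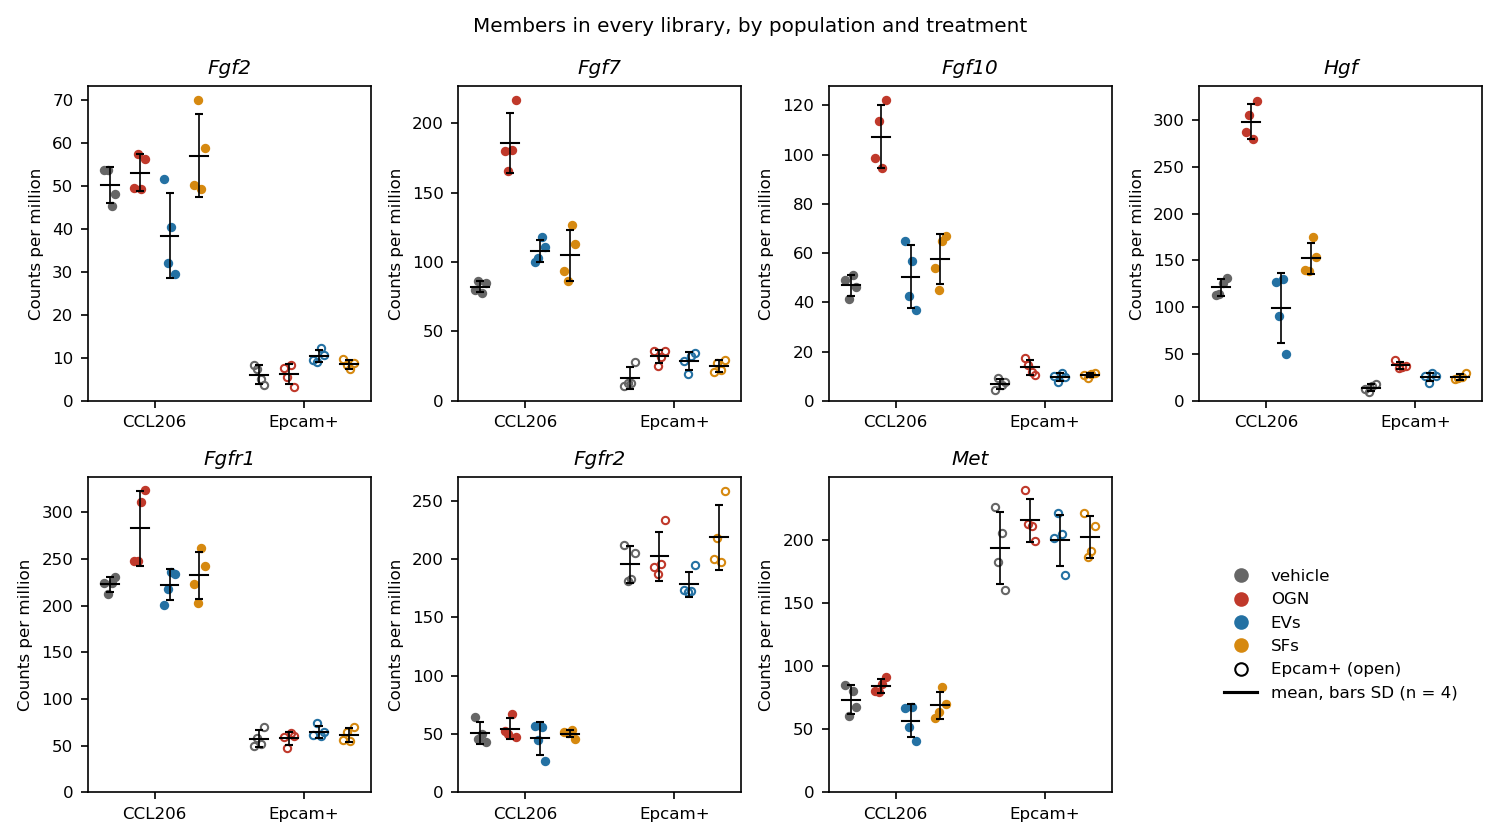
CPM of each member (linear axes from 0) in the CCL206 (filled) and Epcam+ (open) libraries of 4 mice by treatment, with the mean (horizontal line) and SD (bars, n = 4). The OGN points of Fgf7, Fgf10 and Hgf in CCL206 cells lie above the vehicle points, from 165, 94.7 and 279 CPM upward, and Fgfr2 and Met are higher in Epcam+ than in CCL206 cells.

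With EVs or SFs, the log2 fold changes of Fgf7, Fgf10 and Hgf in fibroblasts were between -0.31 and 0.39. With EVs, Fgf7 was at 99.7, 103, 118 and 111 CPM, above every vehicle library, with a log2 fold change of 0.39 ± 0.11 (adjusted p = 0.0127, edgeR). It was called with EVs, where 36.0% of all genes were (4207 genes, but 19 without mouse 2), and the call was lost without mouse 2 (0.0694), 3 (0.0536) or 4 (0.0692). Met was the other of the 2 members called with EVs (-0.37 ± 0.14 on the log2 scale, adjusted p = 0.0467, edgeR), from 85.1, 60.5, 80.3 and 68.0 CPM to 66.7, 51.6, 68.0 and 40.5 CPM, with overlapping groups. That call was lost without each mouse in turn, and with the trend on transcript length taken out the log2 fold change of Met was -0.01 (adjusted p = 0.968, edgeR). Under the same correction Fgfr1 went from 0.00 to 0.33 and was called (0.0376).

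The Hgf level with EVs was divided by mouse. It was 127 and 130.0 CPM in mice 1 and 3 and 90.5 and 50.0 CPM in mice 2 and 4, the libraries with the steeper trend on transcript length, and its log2 fold change was -0.31 ± 0.20 (adjusted p = 0.226, edgeR). Without both libraries the log2 fold change was 0.08, and with the trend taken out it was 0.02. Fgf2 had the same division, at 51.5 and 40.5 CPM in mice 1 and 3 and 32.02 and 29.6 CPM in mice 2 and 4 (-0.38 ± 0.16, adjusted p = 0.0687, edgeR; -0.06 without both libraries). Fgf10 was divided likewise, at 65.1 and 56.8 CPM in mice 1 and 3 and 42.8 and 37.1 CPM in mice 2 and 4. Its log2 fold change was 0.10 ± 0.16 (adjusted p = 0.642, edgeR) and ran from 0.01 to 0.35 over the alternatives.

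With SFs, none of the 7 members was called by edgeR (0.0599% of all genes were), 1 had an unadjusted p under 0.05, and DESeq2 called none. Hgf was at 139.9, 139, 175 and 154 CPM, above all 4 vehicle libraries, with a log2 fold change of 0.32 ± 0.19 (adjusted p = 1, edgeR). The call depended on which libraries set the spread. Fitted with only the 8 libraries compared, Hgf (adjusted p = 0.00383, edgeR) and Fgf7 (0.0252) were called, and without the EV-treated libraries Hgf was (0.0323), each at about the same log2 fold change. Fgf7 was at 93.5, 86.4, 126 and 113 CPM (0.34 ± 0.10, adjusted p = 0.629, edgeR), and Fgf10 at 53.8, 45.2, 64.98 and 66.9 CPM (0.29 ± 0.16, adjusted p = 0.987, edgeR).

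Set directly against the other treatments, OGN gave higher Fgf7, Fgf10 and Hgf in fibroblasts than either EVs or SFs. Against SFs these 3 members were called (2.79% of all genes), with log2 differences of 0.83 ± 0.10 for Fgf7 (adjusted p = 0.000404, edgeR), 0.91 ± 0.16 for Fgf10 (0.00437) and 0.98 ± 0.19 for Hgf (0.00892). Against EVs 6 members were called (37.6% of all genes), with 0.77 ± 0.10 for Fgf7, 1.10 ± 0.16 for Fgf10 and 1.61 ± 0.20 for Hgf, beside Fgf2 (0.46 ± 0.16), Fgfr1 (0.33 ± 0.09) and Met (0.58 ± 0.14). Between EVs and SFs 2 members were called (28.9% of all genes), Fgf2 (-0.56 ± 0.16) and Hgf (-0.63 ± 0.20), both lower with EVs. With the trend on transcript length taken out, 6 of these 11 calls remained, those of Fgf7, Fgf10 and Hgf with OGN against EVs and against SFs. The 5 other calls, all against EVs or between EVs and SFs, were also lost without mouse 2 (adjusted p = 0.0589 to 0.212, edgeR), without mouse 4 (0.0541 to 0.190) and with only the libraries compared. Without mouse 2, the calls of Fgf10 (0.116) and Hgf (0.158) for OGN against SFs were lost too, as was that of Hgf without mouse 3 (0.0522). Fgfr1 for OGN against SFs (0.28 ± 0.09, adjusted p = 0.110, edgeR) was called by DESeq2 (0.0117). The comparisons share libraries and are not independent of each other.

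**Figure D2:**
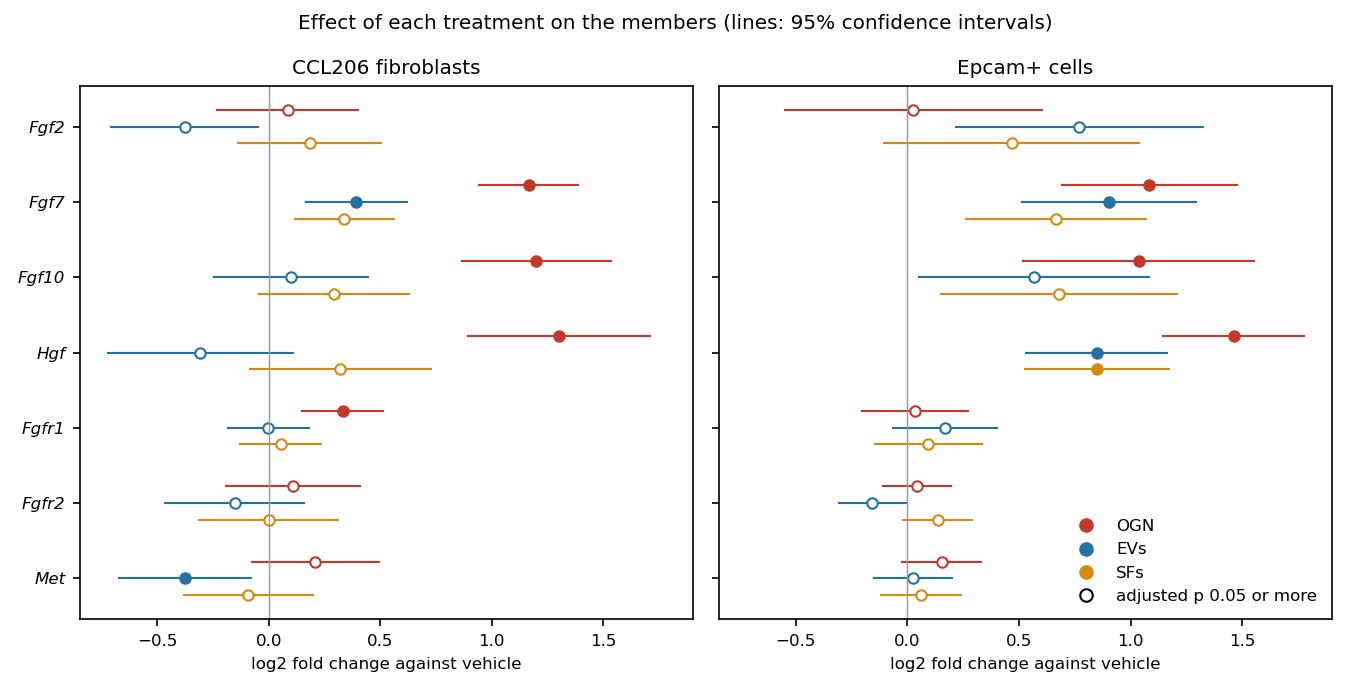
Log2 fold change of each member against vehicle (x axis) in CCL206 fibroblasts (left) and Epcam+ cells (right), with 95% confidence intervals as lines and filled points for an adjusted p under 0.05 (edgeR). With OGN, Fgf7, Fgf10 and Hgf lie at 1.17, 1.20 and 1.30 in fibroblasts and at 1.08, 1.04 and 1.46 in Epcam+ cells, and the receptors of Epcam+ cells lie between -0.16 and 0.17 in all treatments.

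The receptor messengers of the Epcam+ cells were not called in any of the 3 comparisons with vehicle, nor between treatments by edgeR. Fgfr2, the receptor of FGF7 and FGF10 in epithelium, was at 212, 181, 183 and 205 CPM with vehicle and 193, 187, 196 and 233 CPM with OGN, with overlapping groups and a log2 fold change of 0.04 ± 0.07 (95% confidence interval -0.11 to 0.19; adjusted p = 0.874, edgeR). Met, the HGF receptor, was at 226, 182, 206 and 160.4 CPM with vehicle and 239, 213, 211 and 199 CPM with OGN. It was higher in 4 of 4 mice, by 1.03- to 1.24-fold, but the groups overlapped and the log2 fold change of 0.15 ± 0.08 was not called (-0.02 to 0.33; adjusted p = 0.461, edgeR). Fgfr1 was at 49.4, 58.5, 52.4 and 70.6 CPM with vehicle and 59.4, 47.8, 64.0 and 60.0 CPM with OGN (0.03 ± 0.11, -0.21 to 0.27; adjusted p = 0.944, edgeR). In vehicle its mean was 57.7 CPM in Epcam+ and 222.9 CPM in CCL206 libraries. What part fibroblast messengers had in the Epcam+ level of Fgfr1 was not tested.

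With EVs, Fgfr2 of Epcam+ cells was at 173, 172, 173 and 195 CPM and was lower in 4 of 4 mice, with a log2 fold change of -0.16 ± 0.07 (adjusted p = 0.465, edgeR). With SFs it was at 200.4, 218, 198 and 258 CPM (0.14 ± 0.07, adjusted p = 0.697, edgeR). The difference between EVs and SFs, -0.29 ± 0.07, was not called by edgeR (adjusted p = 0.325) and was called by DESeq2 (0.0455). In that comparison 0 of 7 members were called by edgeR, 1 had an unadjusted p under 0.05 and 1 was called by DESeq2, and 0.0256% of all genes were called. Met had log2 fold changes of 0.03 ± 0.08 with EVs and 0.06 ± 0.09 with SFs, and Fgfr1 of 0.17 ± 0.11 and 0.09 ± 0.12.

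In the fibroblasts, Fgfr1 was the receptor that OGN raised, by 1.26-fold, from 224, 212, 224 and 231 CPM to 248, 248, 311 and 324 CPM. The groups did not overlap, but the OGN libraries of mice 3 and 4 were well above those of mice 1 and 2 (log2 fold change 0.33 ± 0.09, adjusted p = 0.0341, edgeR). This call was lost without the mouse block (0.0857), with the length trend taken out (0.0677) and without mouse 2 (0.149), 3 (0.254) or 4 (0.200). Fgfr2 was at 43.4 to 64.4 CPM with vehicle and 47.6 to 67.4 CPM with OGN (0.11 ± 0.14, adjusted p = 0.800, edgeR), and Met at 60.5 to 85.1 and 79.5 to 91.5 CPM (0.21 ± 0.13, adjusted p = 0.506, edgeR).

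The ligands were higher in the fibroblasts and the receptors Fgfr2 and Met in the Epcam+ cells. In vehicle, Hgf was 8.62-fold, Fgf2 7.74-fold, Fgf10 7.35-fold and Fgf7 5.40-fold higher in CCL206 fibroblasts than in Epcam+ cells, and Fgfr1 was 3.88-fold higher. Fgfr2 was 3.89-fold and Met 2.66-fold higher in Epcam+ cells. All 7 members were called, with adjusted p of at most 8.46e-12 (edgeR), in a comparison where 69.6% of all genes were called. In these sorted bulk samples a difference in the number of cells of a type and one in the RNA per cell cannot be told apart. Neither population was free of the other, so these ratios include messengers of the other population.

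Per kilobase of the canonical transcript, the ligand levels of vehicle fibroblasts were 27.6 ± 1.39 CPM per kilobase for Fgf7 (SD, n = 4), 18.6 ± 1.41 for Hgf, 10.6 ± 0.949 for Fgf10 and 7.98 ± 0.674 for Fgf2. With OGN the order of the first 3 stayed the same, at 62.4 ± 7.28 for Fgf7, 45.7 ± 2.85 for Hgf and 24.1 ± 2.87 for Fgf10, and Fgf2 was at 8.45 ± 0.693. Among the receptors of vehicle Epcam+ cells, Fgfr2 (34.6 ± 2.76) and Met (28.2 ± 4.13) differed by less than the sum of their SDs, and Fgfr1 was at 9.40 ± 1.53. In vehicle fibroblasts Fgfr1 was at 36.3 ± 1.30, Met at 10.7 ± 1.64 and Fgfr2 at 9.01 ± 1.66. By the median coding transcript, Fgf2 moved from last to first among the ligands of vehicle fibroblasts, at 40.4 CPM per kilobase. The receptors kept their order, but Fgfr2 and Met of vehicle Epcam+ cells were then at 79.1 and 77.0 CPM per kilobase.

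Ligand messengers were also present at a low level in the Epcam+ libraries and rose there with OGN. Hgf was at 13.2, 9.005, 16.2 and 17.9 CPM with vehicle and 43.7, 35.0, 36.6 and 37.4 CPM with OGN, with no overlap and a log2 fold change of 1.46 ± 0.15 (adjusted p = 1.85e-06, edgeR). Fgf7 was at 10.9, 13.2, 12.9 and 27.9 CPM with vehicle and 35.8, 25.3, 31.3 and 35.8 CPM with OGN (1.08 ± 0.19, adjusted p = 0.00115, edgeR). The vehicle library of mouse 4 lay within the OGN range, and the call was lost without mouse 1 (0.0785). Fgf10 rose from 4.61, 9.33, 6.27 and 7.81 CPM to 17.4, 14.6, 11.8 and 10.5 CPM (1.04 ± 0.25, adjusted p = 0.0215, edgeR), and its call was lost without mouse 1 (0.389) or 3 (0.117). These were 3 of the 7 members, where 2.70% of all genes were called, and Fgf2 was at 3.63 to 8.45 CPM with vehicle and 3.23 to 8.40 CPM with OGN (0.03 ± 0.28).

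In each vehicle culture the Epcam+ level was a small share of the CCL206 level, 12.1% ± 3.53 (SD, n = 4) for Fgf2, 19.6% ± 8.90 for Fgf7, 15.3% ± 5.74 for Fgf10 and 11.5% ± 2.51 for Hgf. The same share, as the median of the 9 fibroblast markers, was 21.5% ± 4.35, and without Fbln1 every marker lay between 18.9% and 31.0%. With OGN the share was 11.9% ± 5.21 for Fgf2, 17.2% ± 1.92 for Fgf7, 12.9% ± 3.72 for Fgf10 and 12.9% ± 1.74 for Hgf, against 19.1% ± 2.11 for the markers. The share of Hgf in the Epcam+ libraries was thus as large with OGN as with vehicle, within its SD, and lay below that of the fibroblast markers in both. The summed fibroblast markers of the Epcam+ libraries were at 2239 to 3111 CPM with vehicle and 2052 to 2588 CPM with OGN, and 1 of the 9 was called higher (Dcn) and 2 lower (Col6a1, Col6a2), with a median log2 fold change of -0.18 (all genes, -0.003). In the CCL206 libraries 2 of the 9 were called higher and 1 lower with OGN (Dcn, Lum and Col6a2), where 4.56% of all genes were called. What part messengers of fibroblasts had in the ligand counts of the Epcam+ libraries was not tested.

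**Figure D3:**
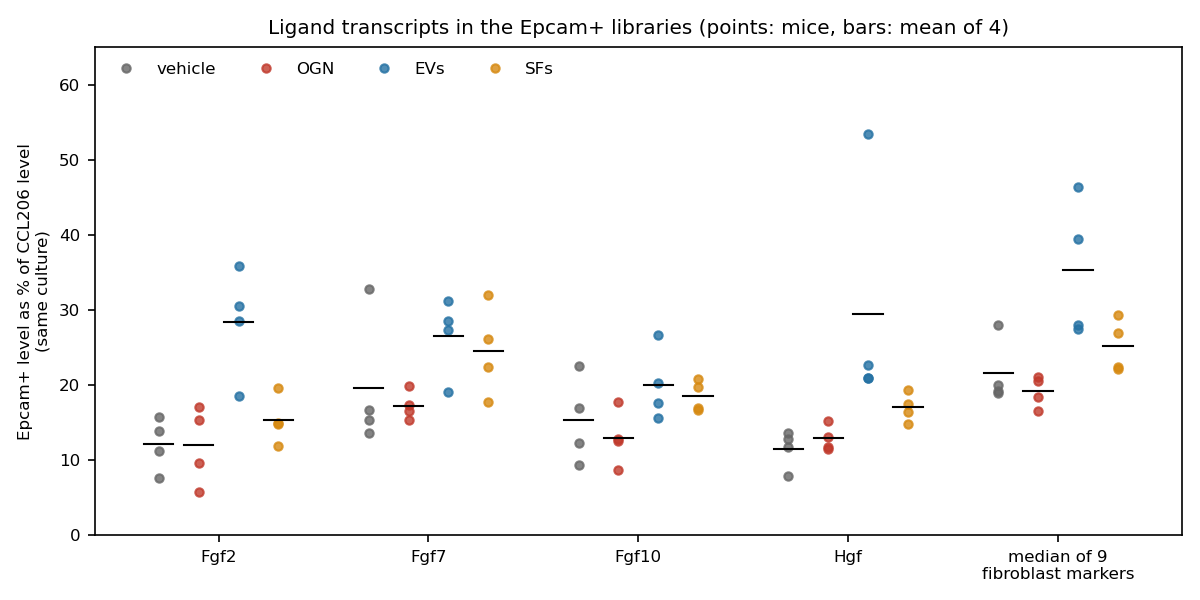
Level in the Epcam+ library as a percent of the level in the CCL206 library of the same culture (y axis, linear from 0) for the 4 ligands and for the median of 9 fibroblast markers, with points for mice and black bars for the mean (n = 4). With vehicle and OGN the means of the ligands lie between 11.5% and 19.6% and those of the markers at 21.5% and 19.1%, and with EVs the means of both are higher. The EV shares divide by CCL206 levels that were uneven between mice, for Hgf 127, 90.5, 130.0 and 50.0 CPM in mice 1 to 4. What part this had in the higher means was not tested.

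With EVs, Fgf7 (28.5, 19.6, 32.2 and 34.6 CPM) and Hgf (26.4, 18.96, 29.4 and 26.7 CPM) were called in Epcam+ libraries, at 0.90 ± 0.19 (adjusted p = 0.0199, edgeR) and 0.85 ± 0.15 (0.00689), where 0.888% of all genes were. Fgf2 was at 9.54, 9.14, 12.3 and 10.6 CPM, above all 4 vehicle libraries, but was not called (0.77 ± 0.27, adjusted p = 0.243, edgeR). The fibroblast markers moved the same way in these libraries. Their sum was 3162 to 3745 CPM, above every vehicle library, and 4 of 9 were called, all higher (Dcn 0.73, Lum 0.80, Col1a2 0.53 and Fn1 0.47 on the log2 scale), with a median of 0.36. In the CCL206 libraries 5 of the 9 were called with EVs (Dcn, Lum, Fn1, Col1a2 and Col6a3), 3 higher and 2 lower, where 36.0% of all genes were. The markers thus moved with EVs in the fibroblast libraries too and are not a fixed measure of fibroblast content. With SFs, Hgf was at 22.9, 24.3, 26.0 and 29.6 CPM and was the 1 member called (0.85 ± 0.16, adjusted p = 0.0166, edgeR), where 0.230% of all genes were. None of the 9 fibroblast markers was called with SFs, and their sum was 2602 to 3509 CPM (median log2 fold change 0.24). The calls of Fgf7 and Hgf with EVs and of Hgf with SFs were lost without the mouse block (0.145, 0.054 and 0.0936) and without mouse 1 (0.265, 0.117 and 0.275) or 3 (0.332, 0.108 and 0.114), and that of Hgf with SFs also without mouse 2 (0.110). Between treatments, Hgf was called in Epcam+ libraries for OGN against EVs (0.61 ± 0.14, adjusted p = 0.0149, edgeR; 2.22% of all genes) and against SFs (0.61 ± 0.14, 0.0273; 1.91%), and no other member was. Both calls were lost without the mouse block (adjusted p = 0.0677 and 0.110, edgeR) and with all 32 libraries in 1 model (0.0976 and 0.144). They were also lost without mouse 1 (0.155 and 0.292), 2 (0.0762 and 0.0506) or 3 (0.0561 and 0.120).

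The effect of OGN on the members was not shown to differ between the populations. In the test of the difference, 0 of 7 members were called by edgeR or DESeq2 (0.551% of all genes by edgeR), 1 had an unadjusted p under 0.05 (Fgfr1, 0.30 ± 0.14 higher in fibroblasts), and the differences of Fgf7, Fgf10 and Hgf were 0.07 ± 0.22, 0.11 ± 0.29 and -0.16 ± 0.25 (log2, CCL206 minus Epcam+). For EVs, Fgf2 (-1.15 ± 0.28, adjusted p = 0.0085, edgeR) and Hgf (-1.18 ± 0.26, 0.0055) differed, where 23.8% of all genes did. Both were lower with EVs than with vehicle in the mean of the fibroblasts and higher in the Epcam+ libraries. Both calls were lost without mouse 2 (0.0566 and 0.0553) and that of Fgf2 also without mouse 4 (0.0881) and without the EV libraries of fibroblasts from cultures 2 and 4 (0.138). For SFs 0 of 7 members were called by either tool, none had an unadjusted p under 0.05, and 0% of all genes were called.

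Other genes of the pathway were described from 7 lists that held 91 genes, of which 69 were in the table. Of 15 further FGF ligands the table held Fgf1 alone, an FGF that binds all FGF receptors, and Fgfr4 was not among the receptors present. The table holds no gene with a 0 in any library, so absence does not show a lack of expression. With vehicle, Fgf1 was at 5.24 to 14.7 CPM in CCL206 libraries. In Epcam+ libraries it fell with OGN, from 46.3, 44.7, 39.2 and 49.1 CPM to 29.9, 27.7, 29.6 and 24.2 CPM, with no overlap (-0.66 ± 0.12, adjusted p = 0.00241, edgeR; 0.0746 with all 32 libraries in 1 model). Fgfr3 and the decoy-like receptor Fgfrl1 were not called in any comparison with vehicle when each population was fitted with all its libraries. With EVs in fibroblasts, Fgfr3 was called with all 32 libraries in 1 model (-0.66, adjusted p = 0.0249, edgeR; 4932 of 11805 genes). Fgfrl1 was called there with the length trend taken out (0.50, 0.0184; 2736 of 11689 genes). Fgf1 (-0.82) was called there by DESeq2 (adjusted p = 0.0356; 4775 of 11689 genes) but not by edgeR within fibroblasts.

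In OGN-treated fibroblasts, 6 of 19 feedback and target genes of ERK signaling were called, all lower, where 4.56% of all genes were called in either direction, and the list had a median log2 fold change of -0.15, against -0.01 over all genes. Over the 69 genes of the 7 lists, 3 were higher and 9 lower (17.4%). Without the EV-treated libraries, 8 genes of the ERK list were lower and 2 were higher, in a fit where 1770 of 11688 genes were called. The 2 were Spred3 (0.33, adjusted p = 0.00466, edgeR) and Etv1 (0.27, 0.0173), which are named for this reason after their values were seen. Spry2, a Sprouty inhibitor of receptor signaling, fell from 64.9, 75.4, 56.2 and 48.3 CPM to 36.0, 31.3, 31.1 and 32.3 CPM, with no overlap (-0.89 ± 0.15, adjusted p = 0.0015, edgeR). Myc, a growth-promoting transcription factor, fell by 0.78 ± 0.12 on the log2 scale, and Ccnd1, a cyclin of the G1 phase, by 0.45 ± 0.09. The other 3 that fell were Spry4, Egr1 and Il17rd, and Dusp6 and Etv4, which are often used as readouts of FGF signaling, were not called (0.26 ± 0.14 and 0.19 ± 0.12). These last 5 genes, and Egr1 and Spry2 where their levels are given beyond this comparison, were named after their values were seen. The call of Myc was lost without the mouse block (adjusted p = 0.0755, edgeR). The calls of Ccnd1, Spry4, Egr1 and Il17rd were lost without 2 or more of the mice in turn, and the list had 2 lower calls without mouse 2 and 2 without mouse 3. Those fits called 236 of 11710 and 314 of 11650 genes. In vehicle fibroblasts Egr1 was at 698 and 644 CPM in mice 1 and 2 and at 217 and 206 CPM in mice 3 and 4.

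**Figure D4:**
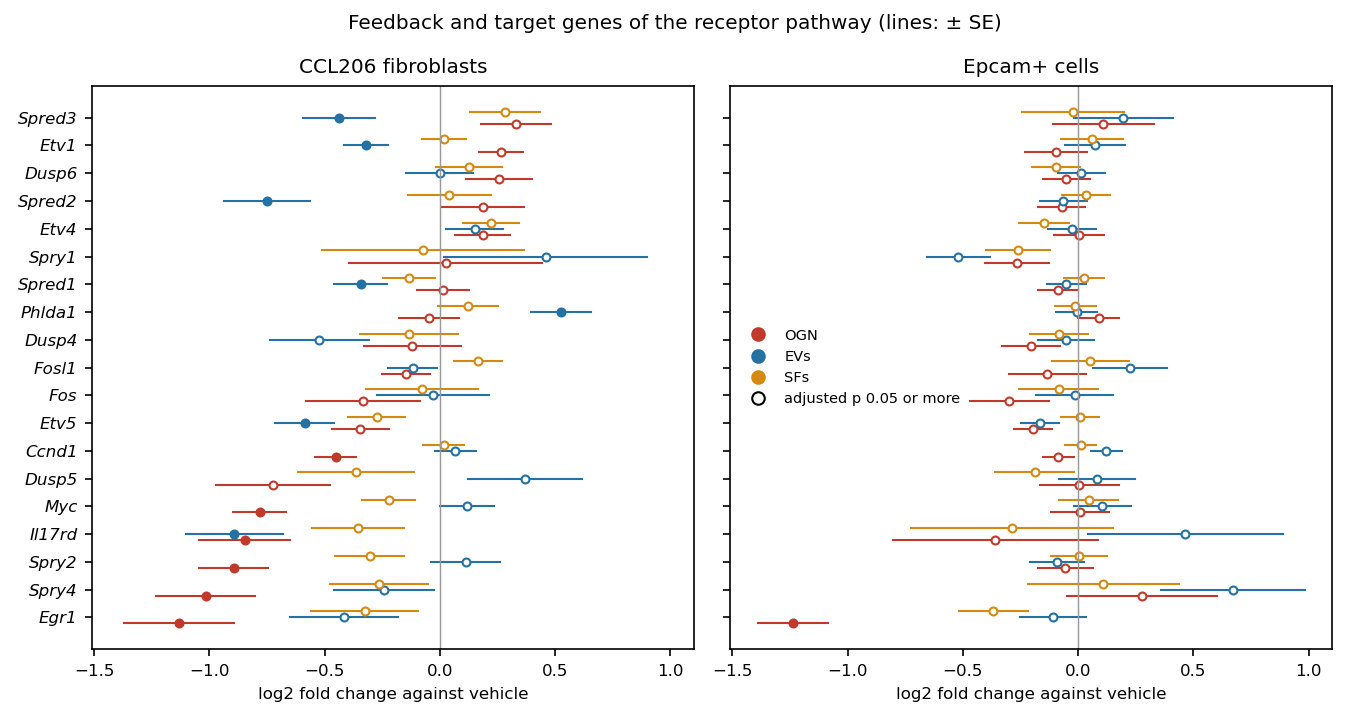
Log2 fold change against vehicle (x axis, lines ± SE) of the 19 feedback and target genes of ERK signaling in CCL206 fibroblasts (left) and Epcam+ cells (right), with filled points for an adjusted p under 0.05 (edgeR). With OGN the 6 filled points of fibroblasts are all negative, and in Epcam+ cells Egr1 at -1.24 is the filled point.

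The genes that shape ligand access changed in both directions in OGN-treated fibroblasts. In each of the next 4 lists only 1 or 2 genes were called in the fit over all 16 fibroblast libraries, and 1 of 20 is near the share over all genes (4.56%). Plau, the urokinase that can activate HGF, fell from 79.3, 74.0, 54.1 and 58.2 CPM to 32.2, 30.8, 40.03 and 29.8 CPM (-0.99 ± 0.15, adjusted p = 0.000585, edgeR), the 1 call among 7 genes of HGF activation. Sulf2, which removes sulfate groups from heparan sulfate, fell by 0.69 ± 0.13, and Ext1, a heparan sulfate polymerase, rose by 0.49 ± 0.11, among 10 heparan sulfate enzymes. Of 10 co-receptors and carriers, the syndecan Sdc2 fell by 0.47 ± 0.09 and Sdc1 rose by 0.48 ± 0.10. The 4 epithelial markers of the CCL206 libraries summed to 239 to 463 CPM with OGN and 152 to 391.6 CPM with vehicle. None of the 4 was called (median log2 fold change 0.46), but 2 of the 10 AT2 markers, Sftpa1 and Sftpd, were called higher. What part epithelial messengers had in the level of Sdc1 was not tested. Map2k1, the kinase MEK1 that activates ERK, was the 1 call among 20 relay genes and rose from 125, 125, 132 and 122 CPM to 196, 192, 196 and 224 CPM (0.68 ± 0.09, adjusted p = 0.000217, edgeR). The calls of Spry2, Plau and Map2k1 held under all 14 alternatives. Those of Sulf2 (without mouse 2, adjusted p = 0.0752, edgeR), Ext1 (without mouse 1, 2 or 3), Sdc1 (without mouse 2 or 3) and Sdc2 (without mouse 1 or 2) did not. Without the EV-treated libraries, where 1770 of 11688 genes were called, further genes of these lists were called and are named after their values were seen. Spint2 (0.81, adjusted p = 6.97e-05, edgeR), Sdc3, Sdc4, Gpc4, Ndst1, Ndst2, St14, Map2k2 and Stat3 were higher. Plat (-0.44, adjusted p = 0.00236, edgeR), Hs6st2 and Gab1 were lower.

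In Epcam+ cells 4 of the 69 genes (5.80%) were called with OGN, where 2.70% of all genes were. Egr1, an immediate early gene of ERK signaling, fell from 149, 147, 63.3 and 70.6 CPM to 46.7, 62.3, 36.7 and 31.5 CPM (-1.24 ± 0.15, adjusted p = 1.81e-05, edgeR), lower in each mouse. Sdc2 fell by 0.61 ± 0.13, Fgf1 as above, and Map2k1 rose by 0.40 ± 0.09. The calls of Sdc2 (without mouse 1 or 4) and Map2k1 (without mouse 2 or 3) were lost. Spry2 was at 40.2 to 59.8 CPM with vehicle and 40.1 to 58.5 CPM with OGN. Whether the lists responded differently in the 2 populations was not tested.

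With EVs, 23 of the 69 genes were called in fibroblasts (9 higher and 14 lower), which is 33.3% and no higher than the 36.0% over all genes. None of these calls held without mouse 2, where 0 of the 69 were called by edgeR and 23 had an unadjusted p under 0.05 (DESeq2, run with all 4 mice, called 10 higher and 17 lower). Over all genes, edgeR called 19 of 11710 without mouse 2, and DESeq2 called 4775 of 11689. Without mouse 4, 5 were higher and 1 lower (711 of 11707 genes were called). Without the EV libraries of fibroblasts from cultures 2 and 4, 5 were higher and 3 lower (645 of 11777 genes). In the last fit Spint2 went from 0.75 to 0.04 and Hspg2 from -0.73 to -0.08. Of the ERK list 1 was higher (Phlda1, 0.53 ± 0.13) and 6 were lower, with Etv5 (-0.59 ± 0.13), Il17rd (-0.89 ± 0.21) and Spred2 (-0.75 ± 0.19) first by p. Of the co-receptors Sdc1 (0.60 ± 0.10), Gpc1 and Sdc4 were higher and Gpc6 (-0.92 ± 0.25), Gpc4 and the large proteoglycan Hspg2 were lower. In the HGF activation list, Plau (0.55 ± 0.15) and the protease inhibitor Spint2 (0.75 ± 0.25) were higher. The 4 epithelial markers of these fibroblast libraries summed to 256 to 358 CPM, within the vehicle range (152 to 391.6 CPM). Of the 4, 1 was called higher (Krt18), with a median log2 fold change of 0.52. What part epithelial messengers had in the levels of Sdc1 and Spint2 was not tested. In the relay list, Map2k2 (0.85 ± 0.15), Hras (0.93 ± 0.18) and Map2k1 (0.27 ± 0.09) were higher and 5 genes were lower, with Braf (-1.03 ± 0.24), Sos1 (-0.79 ± 0.19) and Frs2 (-0.71 ± 0.18) first by p. With the trend on transcript length taken out, 12 genes were higher and 7 lower, where 2736 of 11689 genes were called. None of the 69 genes was called by edgeR with SFs in either population or with EVs in Epcam+ cells, where 6, 5 and 10 had an unadjusted p under 0.05 and DESeq2 called 0, 0 and 4. Over all genes DESeq2 called 32 of 11689 with SFs in fibroblasts. In Epcam+ cells it called 54 of 11716 with SFs and 201 of 11716 with EVs.

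Over the 16 fibroblast libraries, with each mouse's mean taken out, the log2 CPM of Hgf ran with that of Fgf10 (Pearson's r = 0.94), that of Fgf10 with Fgf7 (0.89), and that of Hgf with Fgf7 (0.77), while Fgf2 was at 0.63 with Hgf, 0.45 with Fgf10 and 0.12 with Fgf7. The genes whose pattern was most like each ligand were Ankrd37, Il33 and Stip1 for Fgf7 (r = 0.98, 0.98 and 0.97), Ero1a, Lox and Hif1a for Fgf10 (0.97, 0.97 and 0.97), Antxr1, C3 and Dnajc5 for Hgf (0.99, 0.99 and 0.98) and Ubp1, Scyl3 and Rfx1 for Fgf2 (0.97, 0.97 and 0.97). Over the 16 Epcam+ libraries, they were Fasn, Lrba and Uvrag for Fgfr2 (0.85, 0.81 and 0.80), Tgfa, Ccdc167 and Tomm70a for Met (0.88, 0.88 and 0.85) and B4galt1, Gm46620 and Gm53 for Fgfr1 (0.92, 0.89 and 0.87). These are descriptions over libraries that share treatments, mice and depth.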

How the data were processed

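RNA of 16 CCL206 and 16 Epcam+ samples was sequenced on an Illumina NovaSeq. The authors deposited whole-number counts per gene, not normalized. Per the labels, reads were trimmed with Trimmomatic 0.30 and set on GRCm39, while the study's methods name GRCm38 patch 6. The aligner, counter, annotation and strand setting are not given in the sources used here, so reads of overlapping or antisense genes cannot be told apart. No gene of the deposited table has a 0 in any library.

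Counts were fitted with edgeR 4.0.16 (R 4.3.3; TMM, filterByExpr, quasi-likelihood test) within each population, with treatment and mouse as terms and Benjamini-Hochberg adjustment over all genes (threshold 0.05). Populations and differences of effects were fitted over 32 libraries. The model was run on simulated counts with planted changes. These held no mouse effect, no trend on transcript length and no libraries that stood apart, so the run says nothing about those features. SE values are the log2 fold change over the root of F. The same mouse number marks 1 animal in the labels. Deviations of same-mouse libraries from their group's mean correlated at 0.0938 to 0.249 on average, with a lowest single value of -0.0459 (CCL206, EVs). Group means were taken out, so the average for other mice (-0.0806 to -0.0316) largely follows from these values. It is no separate evidence of pairing. No pair of the 48 replicate pairs was identical. All libraries of a CCL206 group are from 1 line, so p-values measure the spread between these cultures.

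Alternatives were no mouse block, RLE size factors, DESeq2 1.42.0, no count filter, a minimum of 10 counts, other sets of libraries, a length-trend correction and each mouse left out. Leaving out both fibroblast libraries given EVs in mice 2 and 4 was added after seeing the data. The members and lists were chosen with earlier results of these data known. Named genes were the 7 members, up to 3 called genes per list and direction by p, and the 3 most alike genes per member. Transcript lengths came from GENCODE, and promoters from RefSeq GRCm38.p6, which gave 7 windows for 6 of 7 members. Fgfr1 had none.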

Additional observations from a re-analysis of the deposited data

Results flagged for a closer look

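In the vehicle Epcam+ libraries, Fgf7 was at 27.9 CPM in mouse 4, far from the other 3 libraries (10.9 to 13.2 CPM). In the EV-treated Epcam+ libraries, Fgfr2 was at 195 CPM in mouse 4, far from the other 3 (172 to 173 CPM). These were 2 of the 56 groups of 4 libraries looked at, and chance alone flags about 1 in 20 groups. The effect of EVs differed between the populations for Fgf2 (-1.15 ± 0.28 on the log2 scale, CCL206 minus Epcam+, adjusted p = 0.0085, edgeR) and Hgf (-1.18 ± 0.26, 0.0055), by a test of the difference itself. As given above, both calls were lost without mouse 2. That of Fgf2 was also lost without mouse 4 and without both fibroblast libraries given EVs in mice 2 and 4.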

How the results depend on the processing

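Of the log2 fold changes under alternatives, 862 kept direction and side of the threshold, 36 lost a call, 10 gained one and 23 changed sign. The 2.24- to 2.46-fold OGN rises of Fgf7, Fgf10 and Hgf in fibroblasts kept their calls under all alternatives. With OGN in fibroblasts, 4 members were called, and 3 without the mouse block, with the length trend taken out and without mouse 2, 3 or 4, since Fgfr1 lost its call. Counts of members called that moved by over 1.5 times were as follows, and the causes were not tested. Without the mouse block (the pairing), 1 member rather than 2 was called with EVs in fibroblasts, 0 rather than 2 with EVs and 0 rather than 1 with SFs in Epcam+ cells, and 0 rather than 2 between treatments in Epcam+ cells. With only the libraries compared, 0 were called with EVs and 2 rather than 0 with SFs in fibroblasts, and 1 between treatments in Epcam+ cells. With all 32 libraries in 1 model, 0 were called with SFs and 0 between treatments in Epcam+ cells. Without the EV-treated libraries, 1 was called with SFs in fibroblasts. With the length trend taken out, 6 rather than 11 tests between treatments were called in fibroblasts. Without both fibroblast libraries given EVs in mice 2 and 4, chosen after seeing the data, 1 was called with EVs, 1 with SFs and 1 in the difference of the EV effect, where DESeq2 called 4.

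Leaving out 1 mouse at a time gave 0 to 2 members with EVs in fibroblasts, 1 to 3 with OGN, 0 to 2 with EVs and 0 to 1 with SFs in Epcam+ cells, 4 to 12 and 0 to 2 tests between treatments in fibroblasts and Epcam+ cells, and 0 to 3 in the difference of the EV effect. Signs changed for uncalled values. With the length trend taken out and without both EV libraries, Hgf with EVs in fibroblasts was 0.02 and 0.08 and Fgfr2 0.10 and 0.01, and the difference of the EV effect for Fgfr2 was 0.26 and 0.17. With the trend taken out, that of Fgfr1 was 0.16 for EVs and 0.02 for SFs. With 1 mouse left out, values ran from -0.01 to 0.09 for Fgfr1 and -0.14 to 0.05 for Met with SFs in fibroblasts. In Epcam+ cells they ran with OGN from -0.25 to 0.15 for Fgf2, -0.07 to 0.13 for Fgfr1 and -0.01 to 0.11 for Fgfr2, and for Met from -0.05 to 0.10 with EVs and -0.05 to 0.12 with SFs. Differences of the OGN effect ran from -0.06 to 0.34 for Fgf2, -0.25 to 0.36 for Fgf7, -0.12 to 0.60 for Fgf10 and -0.03 to 0.14 for Fgfr2, and that of the EV effect from -0.12 to 0.13 for Fgfr2.

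The number of all genes called moved more. In fibroblasts it was 533 with OGN (236 to 1770 over the alternatives), 4207 with EVs (19 to 4932) and 7 with SFs (2 to 302), and in Epcam+ cells 316 (144 to 465), 104 (9 to 201) and 27 (6 to 54). Between treatments it was 4397 (636 to 5088) for OGN against EVs, 326 (78 to 1290) for OGN against SFs and 3380 (0 to 4401) for EVs against SFs in fibroblasts, and 260 (132 to 413), 224 (72 to 388) and 3 (0 to 24) in Epcam+ cells. Differences of effects were 65 (16 to 168) for OGN, 2815 (33 to 3404) for EVs and 0 (0 to 32) for SFs.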
